A study of Homo sapiens with 12 samples.

Results

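The 108 elements described here are the Pumilio elements that carried 2 substitutions within the first 3 positions of the site, where the consensus reads TGT. The rule that chose them used sequence and listing, not editing values, though it was set with earlier results of these data known. It took 8-base elements listed in all 12 libraries. The consensus is TGTA, then any base, then ATA, in DNA letters, with positions counted from 1 at the 5′ end. Members differed from it at exactly 2 of its 7 fixed positions, both among positions 1, 2 and 3. They made up 108 of 1005 such 8-base elements and 108 of all 756 double substitutions in the library. The 3 possible position pairs (1 with 2, 1 with 3, 2 with 3) held 36 elements each, that is 9 base combinations with each of the 4 bases at the free position 5. Because 2 of the 3 leading bases were changed, 0 of the 108 held TGT anywhere in their 8 bases.

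RBPscan records protein binding as RNA editing. HEK293T cells, which derive from human embryonic kidney and are labelled as wild type, held a library of recorder mRNAs whose 3′ UTR combines an element with a hairpin that can be edited. Human PUM2 was fused to ADARcdMUT, a mutated catalytic domain of the RNA-editing enzyme ADAR, and A-to-G changes in the hairpin were counted. All 4 groups had 3 biological replicates and shared the cell line and the recorder library. Doxycycline switched on the fusion. In 1 group PUM2-ADARcdMUT was left without induction, 2 groups carried it at 25 ng or 250 ng, and the last had ADARcdMUT with no PUM2 part, at 1000 ng. The titles name no substance for these amounts, so it is unknown here whether the 1000 ng is on the scale of the others. Protein levels were not analysed here. Editing is given as percent edited, the edits of an element as a percent of 7 adenosines in each of its reads.

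PUM2 belongs to the Pumilio family, which represses mRNAs mainly by bringing deadenylation and decay factors to their 3′ UTRs. Its RNA-binding domain is an arc of repeats that each contact a base of the site, in antiparallel order, so that the leading UGU of the RNA meets the repeats at the C-terminal end. That triplet is the most strictly kept part of Pumilio sites, while the free base in the middle is tolerated in all its forms.

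The sequences shown here are those on which the results turn: the intact element with T at the free position as reference, the 4 elements whose change on induction to 250 ng was called above that of the library, the 6 with the lowest such change, and 3 single substitutions that lie 1 step from them. Capitals mark the substituted bases.
Consensus: tgtatata
T1C and G2C: CCtatata
T1A and T3G: AgGacata
G2A and T3C: tACatata
T1A and G2C: ACtacata
G2A and T3G: tAGagata
G2C and T3G: tCGatata
T1A and T3G: AgGagata
G2C and T3C: tCCagata
G2A and T3G: tAGaaata
T1C and T3G: CgGatata
Single G2A: tAtatata
Single G2C: tCtatata
Single T3G: tgGatata

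The 12 libraries held 11235321 to 25127959 reads. The members took 8.001% to 9.45% of them, and single members had 2998 to 35835 reads in a library (library medians 7908 to 20220.5). Counting error of a member's share of edited reads was typically 0.248 to 0.367 percentage points, and read counts may include PCR copies, so the spread between replicates is used for all comparisons. Log2 read profiles over the 8-base elements correlated at 0.907 to 0.996 between replicates, and the correlation of reads with an element's GC content ran from 0.14 in fusion 250 ng replicate 3 to 0.51 in ADARcdMUT replicate 1.

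The first comparison, the fusion at 250 ng against no induction, asks whether elements without an intact TGT still gain editing when PUM2-ADARcdMUT is made. All 108 members rose, but to the level of the library at large and far below the consensus. Their median level was 1.68%, 1.85% and 1.76% in the 3 libraries without induction (1.77% ± 0.0839, SD, n = 3) and 7.71%, 7.85% and 7.97% at 250 ng (7.84% ± 0.126). This is a gain of 6.08 percentage points, or 4.44-fold. The 4 consensus elements went from 1.79% ± 0.0794 to 13.3% ± 0.288, a gain of 11.5 points or 7.45-fold. In no member did the 3 induced libraries overlap with the 3 libraries without induction, and fold changes of single members ran from 3.69 to 5.36. This overlap was not counted over the rest of the library. In limma all 108 were called higher on absolute log2 odds (adjusted p at most 9.39e-14), as was 100% of the library.

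The levels of members and consensus did not overlap at 250 ng. The highest value of any member in any library was 9.28% and the lowest of any consensus element 11.3%. Member means lay between 7.35% and 8.83%, with quartiles at 7.67% and 8.05%. The 91 elements with no TGT and at least 3 mismatches, which lie far from the site in sequence, had a median of 7.89% ± 0.0988 and means between 7.24% and 9.02%. All 108 members fell in that range, and 52 of them lay above its median. The other 648 double substitutions had a median of 7.82% ± 0.0812. Single substitutions at positions 1 to 3 (36 elements) were at 8.27% ± 0.159, with means up to 10.2%, and 7 of the 36 were above the highest member.

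The gap to the consensus was present in both parts that make up the editing level. At 250 ng 22.2% ± 0.513 (SD, n = 3) of a member's reads were edited in the median, against 29.2% ± 0.287 for the consensus and 22.4% ± 0.405 for the elements with at least 3 mismatches. Edited reads carried 2.48 ± 0.0162 edits in members, 3.20 ± 0.0383 in the consensus and 2.46 ± 0.0168 in the distant elements. Without induction the values were 6.84% ± 0.156 and 1.81 ± 0.0620 for members, and 6.74% ± 0.128 and 1.87 ± 0.0460 for the consensus. After induction members had both fewer edited reads and fewer edits in each than intact elements, by more than the SDs.

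Each member was also set against the intact element with the same free base, within each library. All 108 members gained less than their consensus partner between no induction and 250 ng (limma on log2 odds differences, adjusted p at most 0.0313), where 99.9% of the 756 double substitutions did. The difference in gain was -0.77 in the median member, from -1.09 to -0.55, against -0.82 over all double substitutions. The members' share of calls was therefore that of double substitutions in general.

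Since every element gained editing, each library's median log2 odds was also subtracted, which leaves the change of an element relative to the library. On this relative scale 4 members were higher and 0 lower at 250 ng than without induction (limma), where 9.64% of the library was called higher and 3.38% lower. The 4 calls were 3.70% of the members, below the library's share of higher calls. At an unadjusted p under 0.05 (limma) it was 17 of the 108 members and 264 of the 1006 elements. The median relative change of members was 0.05, from -0.23 to 0.34, against 0.01 over all 1006 elements. Among the 36 single substitutions at positions 1 to 3, 9 were called higher and 1 lower, with a median of 0.11. Without fusion 250 ng replicate 1 or replicate 3, 0 members were called higher, and 2 without replicate 2; without ADARcdMUT replicate 1 it was 8 higher and 2 lower, without its replicate 2 it was 7 and 1. Without non-induced replicate 1 or ADARcdMUT replicate 3, 1 was lower. A fit of these 2 groups alone gave 9 higher and 2 lower, an arcsine transform 11 and 1, a quasi-binomial model 2 and 2, and the share of edited reads 2 and 0. The library's shares in these other fits are not given here, so the counts do not set members apart from the library.

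CCtatata (T1C and G2C) was at 1.59%, 1.93% and 1.63% without induction, at 4.77%, 4.58% and 4.42% at 25 ng, and at 8.71%, 8.89% and 8.90% at 250 ng. All induced libraries were above all others, and its mean at 250 ng was the highest of the 108. Its relative change was 0.27 (SE 0.07, limma adjusted p = 0.0231). AgGacata (T1A and T3G) rose from 1.39%, 1.71% and 1.49% to 7.72%, 7.68% and 7.98%, a relative change of 0.24 (SE 0.06, adjusted p = 0.0132). Its level at 250 ng was below the median of all members, and it stood out by the lowest starting level of the 108, 1.53% ± 0.161 (SD, n = 3).

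tACatata (G2A and T3C) went from 1.73%, 1.60% and 1.57% to 7.97%, 8.25% and 8.52% (relative change 0.23, SE 0.07, adjusted p = 0.0367). ACtacata (T1A and G2C) went from 1.44%, 1.65% and 1.64% to 8.08%, 7.60% and 8.19% (relative change 0.23, SE 0.06, adjusted p = 0.0179). AgGacata, ACtacata (1.58% ± 0.116) and tACatata (1.63% ± 0.0852) all started below the lower quartile of the members, 1.71%, while CCtatata started at 1.72% ± 0.186. At 250 ng CCtatata and tACatata were above the upper quartile and the other two within the quartiles. CCtatata and AgGacata kept their calls under all 8 other settings of the fit, ACtacata under 5 and tACatata under 4 of 7. AgGacata lost its call without fusion 250 ng replicate 1 (adjusted p = 0.0669) or 3 (0.0825). CCtatata lost it without any 1 of the 250 ng libraries or without non-induced replicate 1 or 3 (adjusted p from 0.0757 to 0.0849). ACtacata lost it without 250 ng replicate 1 or 3 or non-induced replicate 1, and tACatata without any 250 ng library, non-induced replicate 2 or 3, or 25 ng replicate 1 or 3.

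The 2 largest relative changes were not among the calls. AAtatata (T1A and G2A) had a change of 0.34 (SE 0.14, limma adjusted p = 0.119), from 1.44%, 1.56% and 1.94% to 8.59%, 8.85% and 9.05%. CAtatata (T1C and G2A) had 0.30 (SE 0.18, adjusted p = 0.331), from 1.66%, 1.55% and 1.83% to 8.24%, 9.28% and 8.96%. Its ADARcdMUT libraries were at 3.56%, 1.86% and 1.61%, an SD of 1.06 points that was the widest among the members. GCtatata was at 0.24 (adjusted p = 0.0667) and AAtacata at 0.24 (adjusted p = 0.0760). All 4 of these and CCtatata and ACtacata changed positions 1 and 2 and kept the T at position 3.

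At the other end stood tAGagata (G2A and T3G), which went from 2.04%, 2.25% and 2.28% without induction to 7.93%, 8.04% and 8.26% at 250 ng. Its relative change was -0.23 (SE 0.09, limma adjusted p = 0.105). Its induced level was above the median of members, and its starting level, 2.19% ± 0.131 (SD, n = 3), was the highest of the 108. The next lowest were tCGatata at -0.16, AgGagata at -0.16, tCCagata at -0.15, tAGaaata at -0.14 and CgGatata at -0.13 (adjusted p from 0.0757 to 0.367). Of these 6, 5 carried T3G, and the 6 started at 1.96% to 2.19%. All 24 members with T3G had a median relative change of -0.05, with 10 above 0, 1 called higher (AgGacata) and 0 called lower. Over all 108 members 70 were above 0, and over the library 525 of 1006 elements. The smallest levels at 250 ng belonged to others, GCtagata at 7.35% ± 0.169, tCAagata at 7.42% ± 0.317 and tCAaaata at 7.45% ± 0.238, whose relative changes were -0.07, -0.06 and 0.01.

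The 3 position pairs kept 1 order in all 3 libraries at 250 ng, with small differences in level. Elements changed at positions 1 and 2 were at 7.95% ± 0.122 (median, SD, n = 3) at 250 ng, those at positions 1 and 3 at 7.84% ± 0.130 and those at positions 2 and 3 at 7.76% ± 0.119. Without induction they were at 1.73%, 1.80% and 1.77%. Their median relative changes were 0.08, 0.01 and 0.02, and 2, 1 and 1 members were called higher. In the single libraries the pairs were, in this order, at 7.82%, 7.71% and 7.66%, at 7.95%, 7.85% and 7.74%, and at 8.07%, 7.97% and 7.89%. Centred on each library's median, their median log2 odds at 250 ng were 0.014 ± 0.0045, -0.0065 ± 0.0065 and -0.023 ± 0.0054 (SD, n = 3), so positions 1 and 2 stood above positions 2 and 3 by more than these SDs. Of 36 members each, 31, 20 and 19 had a relative change above 0, where 525 of all 1006 elements did. These differences between sets were not tested. By kind of substitution the medians at 250 ng ran from 7.68% ± 0.0872 for the 24 members with G2C to 8.0004% ± 0.164 for the 24 with G2A.

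Averaged over the 4 free bases, the 27 base combinations ranged from a relative change of 0.15 for T1A with G2A to -0.15 for G2A with T3G. T1C with G2T (0.14), T1C with G2A (0.14) and T1A with G2C (0.12) followed the first. The low end held G2C with T3G at -0.10, T1C with T3G at -0.03 and G2C with T3C at -0.02, so that 3 of the 4 lowest carried T3G. The other T3G combinations were at 0.00 with T1A, 0.05 with T1G and 0.06 with G2T. At 250 ng the level was 8.17% ± 0.230 (SD, n = 3) for T1A with G2A and 7.92% ± 0.107 for G2A with T3G. Without induction they were at 1.71% and 2.04%. The highest combination in level was T1G with T3C, 8.39% ± 0.206 at 250 ng and 1.97% without induction.

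A pattern that the choice of elements did not use, and that was noticed in these data, lay in the free base. At 250 ng the 27 members with T there had a median level of 8.11%, 8.28% and 8.45% in the 3 libraries (8.28% ± 0.171, SD, n = 3). Those with A were at 7.78% ± 0.144, those with C at 7.85% ± 0.138 and those with G at 7.67% ± 0.115. In each library the T members were above the other 3 sets. Comparing elements that differed only in this base, the T form had the highest mean in 26 of the 27 base combinations, and the G form the lowest in 16. In single libraries the T form was highest in 21, 23 and 25 of 27.

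At 250 ng the T form exceeded the A, C and G forms by 0.507, 0.450 and 0.590 percentage points on average, and at 25 ng by 0.247, 0.232 and 0.246. At 25 ng T members were at 4.47% ± 0.157 against 4.20% to 4.25% for the others, and the T form was highest in 21 of 27 combinations, and in 24, 13 and 14 in the single libraries. Without induction it was highest in 9 of 27 and with ADARcdMUT alone in 7 of 27, and T members were at 1.80% ± 0.134 and 1.93% ± 0.213, against 1.71% to 1.79% and 1.84% to 1.95% for the other bases. Among the 20 highest members at 250 ng 15 had T. These values are descriptions, with no test, since the grouping was made after the levels were seen.

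T members with position 3 intact read TATATA over their last 6 bases. The 9 of them, all changed at positions 1 and 2, were at 8.67% ± 0.0791 (median, SD, n = 3) at 250 ng, against 8.13% ± 0.301 and 8.10% ± 0.135 for the T members of the other position pairs. All 9 had a relative change above 0, with a median of 0.21, where 70 of all 108 members were above 0. The 3 highest members of all belonged here: CCtatata at 8.83% ± 0.110, AAtatata at 8.83% ± 0.232 and CAtatata at 8.83% ± 0.529.

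The same order of T above the other bases was seen outside the members. The other double substitutions with T were at 8.13% ± 0.138 at 250 ng, against 7.66% to 7.82% with the other bases. Among consensus elements TGTATATA was highest at 13.9% ± 0.360 and TGTAGATA lowest at 11.5% ± 0.195. In the elements with no TGT and at least 3 mismatches the base at the same place made no such order, with 7.83% ± 0.125 for T and 7.90% to 7.93% for the others. That set was uneven, with 50 elements for A, 25 for T, 9 for G and 7 for C. They held 1.8, 2.04, 4.11 and 4.86 G or C on average, in this order. Elements of that set were thus not matched at the other positions, unlike members that differ only in the free base. GC content was the same in members with T and with A (1.44 G or C per element on average). Reads moved with the free base: T members had a median CPM (reads scaled to library size) of 716 at 250 ng and 584 without induction, against 846 to 952 and 789 to 953 for the other bases. The part of read number in the editing difference was not tested.

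Setting each member against the 2 single substitutions it contains shows what the second change added. This gave 216 steps. In 27 steps the double substitution gained less than the single one between no induction and 250 ng and in 3 it gained more (limma), where 45.3% of the 1512 steps of all double substitutions were called lower and 0.926% higher. The median step was -0.08, against -0.23 over all steps. The called steps were 13.9% of the 216, a smaller share than among double substitutions in general. By free base, singles at positions 1 to 3 had medians of 7.86% to 8.74% at 250 ng, and other single substitutions 8.45% to 10.3%. The elements with no TGT and at least 3 mismatches were at 7.83% to 7.93%. The members' singles thus lay closer to these distant elements, and the part of this in the smaller share was not tested. The lower steps fell on 27 different members and came from 12 single elements, and in 0 members were both steps called. At 250 ng the mean of 84 members was below both of their singles, that of 20 between them and that of 4 above both. The count of lower steps was 13, 14 and 10 without fusion 250 ng replicate 1, 2 or 3, 16 by the share of edited reads, 42 in a fit of the 2 groups alone and 67 with the arcsine transform. Shares over all 1512 steps in these other fits are not given here.

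The lower steps were spread unevenly over the single substitutions they started from. G2A alone left 9.57% ± 0.346 (mean of 4 free bases, SD, n = 3) at 250 ng, the highest of the 9 single kinds at these positions, and 11 of the 24 steps from it were called lower. T1A alone left 8.69% ± 0.151, G2T alone 8.50% ± 0.233 and T1C alone 8.13% ± 0.249, each with 4 of 24 steps lower. From G2C and T3C 2 of 24 each were lower, which completes the 27. Over all double substitutions 45.3% of the 1512 steps were called lower. The share from G2A was near that level, and those from the other kinds lay below it. The same single elements serve in 6 steps each, so these counts are not independent.

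The largest step was from tCtatata, at 8.75% ± 0.324 (SD, n = 3), to tCGatata, at 7.67% ± 0.0686, a difference in gain of -0.58 (SE 0.10, limma adjusted p = 0.000342). From tAtatata at 10.2% ± 0.344 to tAGatata at 7.97% ± 0.0817 it was -0.52 (SE 0.17, adjusted p = 0.0206), and from Agtatata at 9.33% ± 0.452 to AgGatata at 8.01% ± 0.343 it was -0.51 (SE 0.12, adjusted p = 0.00256). All 3 added T3G. The doubles also started higher than the singles, at 1.98% against 1.54% in the first step, 1.99% against 1.81% in the second and 1.99% against 1.65% in the third, and the difference in gain holds both the higher start and the lower induced level. Over the members 19 of the 72 steps that added a change at position 3 were lower, against 6 of 72 at position 1 and 2 of 72 at position 2. All were smaller shares than the 45.3% called lower over all 1512 steps. Of the 19, 12 started from a single at position 2 and 7 from a single at position 1, so the count also depends on the starting singles.

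The 3 higher steps all started from T3G, and 2 of them from tgGatata: tgGatata to GgGatata (0.35, SE 0.10, limma adjusted p = 0.00742), tgGatata to tTGatata (0.34, SE 0.08, adjusted p = 0.00332) and tgGagata to tTGagata (0.23, SE 0.08, adjusted p = 0.0336). The single elements had high starting levels, 2.25% for tgGatata and 2.07% for tgGagata, against 1.71% to 1.86% for the doubles. At 250 ng the levels were 8.08% ± 0.0725 (SD, n = 3) for tgGatata, 8.39% ± 0.0400 for GgGatata and 8.10% ± 0.132 for tTGatata.

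If the effects of 2 substitutions added up in log2 odds, a double would lose the sum of what its singles lose. That sum mostly lay outside what the library shows. Additive losses would have put the relative change of the members at -0.56 in the median (from -1.13 to -0.10), and 96 of the 108 below the lowest of the elements with no TGT and at least 3 mismatches, -0.27. The single substitutions were already at 0.11, against 0.85 for the consensus, so an excess over the sum was largely set by where the singles lie, and the following counts do not show how the substitutions combine. In 79 of 108 members the double lost less than the sum and in 0 more (limma on double minus both singles plus consensus), where 38.4% of the 756 double substitutions were called in the first direction and 0.132% in the second. At an unadjusted p under 0.05 it was 94 members and 370 of the 756 double substitutions. The median excess was 0.60, against 0.34 over all double substitutions, and all 108 members were above 0, from 0.18 to 1.21. It was 0.58 for positions 1 and 2, 0.64 for positions 1 and 3 and 0.55 for positions 2 and 3, with 25, 31 and 23 of 36 members called. Each excess shares its consensus and single elements with those of other members, so the count is not one of independent events.

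GgGatata (T1G and T3G) had the largest excess, 1.21 (SE 0.13, limma adjusted p = 0.000116). It went from 1.60%, 2.12% and 1.85% without induction to 8.35%, 8.40% and 8.43% at 250 ng. tTGatata (G2T and T3G) followed with 1.01 (SE 0.23, adjusted p = 0.00473). Both excesses use the consensus tgtatata, with a relative change of 0.93, and the single tgGatata, with -0.27. Their rank therefore also reflects these shared references and is not a property of the doubles alone. The smallest were ATtacata at 0.18 (SE 0.23, adjusted p = 0.557) and tAGacata at 0.26 (SE 0.19, adjusted p = 0.300), with levels at 250 ng of 7.99% ± 0.125 (SD, n = 3) and 7.60% ± 0.454.

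At 25 ng the members again rose with the library and stayed below the consensus. Their median was 4.24%, 4.43% and 4.14% in the 3 libraries (4.27% ± 0.148, SD, n = 3), a gain of 2.51 points or 2.42-fold, against 7.24% ± 0.603 for the consensus and 4.32% ± 0.147 for the elements with at least 3 mismatches. All 108 members were called higher on absolute log2 odds by limma (adjusted p at most 1.81e-08), as was 100% of the library, and folds ran from 2.01 to 2.91. Relative to the library median 2 members were higher and 0 lower, where 7.06% and 2.19% of the library were called. At an unadjusted p under 0.05 it was 10 of the 108 members and 221 of the 1006 elements. The 2 calls were ACtacata at 0.29 (SE 0.06, adjusted p = 0.00483) and AgGacata at 0.27 (SE 0.06, adjusted p = 0.00851), which share their non-induced libraries with the comparison at 250 ng. The third largest, CTtatata at 0.21, did not pass (adjusted p = 0.277), nor did the 3 lowest, tAAaaata at -0.24, ATtaaata at -0.20 and CgGatata at -0.18 (adjusted p from 0.0688 to 0.285). Without fusion 25 ng replicate 3, 1 member was called higher, and without non-induced replicate 1 or ADARcdMUT replicate 2 or 3, 1 was lower.

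From 25 ng to 250 ng the members rose with the library. Their median gain over no induction was 2.42 times as large at 250 ng, against 2.12 times for the consensus. In all 108 members the libraries at 250 ng were above those at 25 ng, a count that was not made over the rest of the library. Relative to the library median 0 members were called in either direction by limma and by the quasi-binomial model, where 0% of the library was called. At an unadjusted p under 0.05 (limma) it was 0 members and 4 of the 1006 elements. The relative changes ran from -0.10 to 0.21 with a median of 0.02. Across the 108 members the mean centred log2 odds at 250 ng and 25 ng correlated at r = 0.66, while those at 250 ng correlated with the levels without induction at 0.14 and with ADARcdMUT alone at 0.12. The points share element sequence and, within a group, libraries. Replicates at 250 ng correlated at 0.69 to 0.76 over the members, those at 25 ng at 0.16 to 0.48 and those without induction at 0.15 to 0.36, so the order of members was most repeatable at 250 ng.

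With ADARcdMUT and no PUM2 part the members stayed at a low level, and the consensus did not stand above them. Their median was 2.08%, 1.92% and 1.79% in the 3 libraries (1.93% ± 0.144, SD, n = 3), and the consensus was at 1.80% ± 0.0878. Against the non-induced fusion 0 members were higher on absolute log2 odds by limma, where 0.199% of the library was called, and 0 by the quasi-binomial model. At an unadjusted p under 0.05 (limma) it was 24 of the 108 members and 177 of the 1006 elements. Without ADARcdMUT replicate 3, 19 members were called higher, and the library's share in that fit is not given here. Relative to the library median 0 members were higher and 0 lower by both models (0.199% and 0% of the library by limma). At an unadjusted p under 0.05 (limma) it was 14 members and 134 of the 1006 elements. Without ADARcdMUT replicate 1 it was 1 higher, without replicate 3 it was 2 lower, and without non-induced replicate 2 it was 1 lower. The extremes were CAtatata at 0.31, GgGaaata at 0.26 and ATtatata at 0.24, and tTAatata at -0.30, CgCacata at -0.26 and CgCatata at -0.24.

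Against ADARcdMUT alone, limma called 7 members higher and 3 lower at 250 ng, relative to the library median, where 10.3% and 4.37% of the library were called. The highest was tTAatata (G2T and T3A), at 1.54%, 1.58% and 1.55% with ADARcdMUT and 8.13%, 8.46% and 8.40% at 250 ng, a relative change of 0.41 (SE 0.07, adjusted p = 0.000629). CCtatata followed with 0.39 (SE 0.07, adjusted p = 0.00155) and CAtacata with 0.35 (SE 0.06, adjusted p = 0.000896). The 3 lower members were tAGagata at -0.31 (adjusted p = 0.0274), CgGatata at -0.27 (adjusted p = 0.0419) and GgGaaata at -0.25 (adjusted p = 0.0228). All 3 carried T3G, as did AgGacata, which was called higher (0.22, adjusted p = 0.0215). The member median was 0.01, as over the whole library. Without any 1 of the 250 ng libraries 3 members were higher and 0 lower, a fit of these 2 groups alone gave 5 and 1, and the arcsine transform 13 and 4. Library shares in these other fits are not given here.

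At 25 ng against ADARcdMUT 5 members were higher and 1 lower, where 7.55% and 2.49% of the library were called. The 5 were tTAatata, CAtacata, CCtatata, CgCatata and AgGacata, with changes from 0.25 to 0.35 (CgCacata, at 0.36, did not pass, adjusted p = 0.0816), and the lower one was CgGatata at -0.32 (limma adjusted p = 0.0203). Of these 6, 5 were also called at 250 ng against the same ADARcdMUT libraries. Only AgGacata was called higher in all 4 comparisons of an induced amount with a background, which share their libraries in pairs. Without fusion 25 ng replicate 1, 2 members were higher, and without ADARcdMUT replicate 3 it was 8 higher and 4 lower. Without non-induced replicate 1 or ADARcdMUT replicate 1, 2 were lower, and without ADARcdMUT replicate 2, 3 were. A fit of these 2 groups alone gave 2 higher and 0 lower. Library shares in these other fits are not given here.

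Read number was counted apart from editing, but among members it was related to the editing level after induction. Across members, mean centred log2 odds and log2 CPM correlated at r = -0.35 at 250 ng and -0.28 at 25 ng. Without induction r was 0.01, and with ADARcdMUT alone -0.04. Over all 8-base elements r was -0.005 at 250 ng and -0.03 at 25 ng. The cause of this relation was not tested. Members had a median CPM of 797 ± 13.5 (SD, n = 3) without induction and 839 ± 34.1 at 250 ng, against 941 ± 7.53 and 957 ± 7.97 over all 8-base elements. In edgeR 0 members were higher and 0 lower at 250 ng, as in 0% of the library. At an unadjusted p under 0.05 it was 47 members and 430 of the 1006 elements, and the lowest adjusted p among the members was 0.0766. The median log2 change of members was 0.09, from -0.37 to 0.44, against -0.00 over all elements. ACtatata (0.44) and ATtatata (0.43) were the highest, and GgCagata (-0.37) and GAtagata (-0.29) the lowest. This count shifted with the libraries and the model used, and the cause was not tested. Without fusion 25 ng replicate 2 edgeR called 38 members higher and 12 lower, and without replicate 1 it called 18 and 5. A fit of the 2 groups alone gave 40 and 13, and DESeq2 26 and 9. The library's shares under these settings are not given here, so the counts do not set members apart from the library.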

How the data were processed

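PCR amplicons of the recorder 3′ UTR were sequenced, per the labels' protocols. Their extraction text names zebrafish embryos, while source and cell line give HEK293T. How reads were aligned, filtered and scored for edits is not given here. For each library the authors deposited counts of reads, edited reads and edits per element. They also deposited the percent of adenosines edited, a percent of the library's reads and a score for efficiency. Within a tolerance of 1e-09 that percent is 100 times edits over 7 times reads, and the score is the share of edited reads times edits per read. The lowest listed read number was 1015, and 1006 of 1022 elements were listed in all 12.

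Groups and replicate numbers came from sample titles. Tests used log2((edits + 0.5)/(7 × reads − edits + 0.5)), limma 3.58.1 (lmFit, eBayes with trend) in R 4.3.3, 1 fit of 12 libraries, Benjamini-Hochberg adjustment over 1006 elements, and a threshold of 0.05 on the adjusted p. Relative values subtract each library's median over 8-base elements. Within-library differences between related elements were fitted without trend over 756 double substitutions or 1512 steps. Reads were tested with edgeR 4.0.16 (quasi-likelihood, TMM), and DESeq2 1.42.0 as an alternative. SD is over 3 libraries. Summaries used Python 3.11.15. The fits were tested on simulated data.

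Members and lists were chosen with earlier results of these data known. Named members were, per comparison, the 2 to 6 largest changes each way, all called members at 250 ng against no induction, and the 3 highest and lowest levels. Others were chosen after their values were seen: members called against ADARcdMUT at 25 ng and the grouping by free base. Alternatives were the share of edited reads, an arcsine transform, a quasi-binomial model, fits of 2 groups, a replicate block, a minimum of 5000 reads, a pseudocount of 5, another centring and leaving out each library.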

Additional observations from a re-analysis of the deposited data

How the results depend on the processing

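The call of all 108 members as higher on the absolute scale at 250 ng and 25 ng held under every setting run (90 of 90 with at least 5000 reads in every library), as did that of members below their consensus partner (75 members with at least 5000 reads, and 106 to 108 with 1 library left out). The few calls relative to the library median did not. By the share of edited reads members called higher were 2 at 250 ng and 1 at 25 ng against no induction and 3 at 25 ng against ADARcdMUT. On the arcsine square root scale they were 11 (and 1 lower) at 250 ng against no induction and 13 against ADARcdMUT, and 3 were lower at 25 ng against ADARcdMUT. With only the 2 groups compared, 250 ng against no induction gave 9 higher and 2 lower, 25 ng gave 1 lower, 250 ng against ADARcdMUT gave 1 lower, and 25 ng against ADARcdMUT 2 higher and 0 lower. The quasi-binomial model gave 2 higher and 2 lower at 250 ng and 1 higher at 25 ng against no induction, 4 higher and 1 lower at 250 ng and 0 lower at 25 ng against ADARcdMUT. With at least 5000 reads 1 member was higher at 25 ng against no induction and 1 step was higher. The lower steps were 16, 67 and 42 by the share of edited reads, the arcsine square root and the 2 groups. The library's shares under these settings are not given here, so the counts do not set members apart from the library. The cause of these shifts was not tested.

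With each library left out in turn, members higher and lower were 0 to 8 and 0 to 2 at 250 ng against no induction, 1 to 3 and 0 to 1 at 25 ng, 3 to 10 and 0 to 4 at 250 ng against ADARcdMUT, 2 to 8 and 1 to 4 at 25 ng against ADARcdMUT, and 0 to 1 and 0 to 2 for ADARcdMUT against no induction (0 to 19 higher on the absolute scale). Lower steps were 10 to 35, higher steps 2 to 5, members above additivity 58 to 97, and members with more or fewer reads 0 to 38 and 0 to 12. These counts cover members and their steps only, and the library's shares in these fits are not given here. Replicate numbers do not pair the libraries: deviations of same-numbered libraries correlated at -0.09 to 0.07. As a block the replicate number gave 4 members higher at 250 ng against no induction, 66 above additivity, and 21 with more and 3 with fewer reads. Only 1 of 12 libraries correlated best with a library of its own number. For reads the 2 groups alone gave 40 and 13, and DESeq2 26 and 9. Replicates of a member spread by 0.120 in centred log2 odds without induction and by 0.0387 at 250 ng, which limits the comparisons with no induction.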
